A study of Mus musculus with 3 samples.

Results

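Cxcl9-expressing macrophages were taken as the cells with at least 1 unique molecular identifier (UMI, a tag that counts 1 captured transcript) of Cxcl9 among tumour-associated macrophages of MMTV-PyMT mice. They numbered 237 of 9749 cells. Cells had been kept with at least 500 detected genes and at most 15% mitochondrial UMIs. The members were 8 of 663 cells in mouse 1, 94 of 2108 in mouse 2 and 135 of 6978 in mouse 3. They were set against the 9512 cells of the same libraries without a Cxcl9 UMI (655, 2014 and 6843), and against the 430 of those that had an Ifit1 UMI (31, 148 and 251), a marker of a type I interferon response.

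The 3 mice, of strain FVB/N-Tg(MMTVPyVT)634Mul/J, carry the polyoma middle T oncogene under a promoter active in mammary epithelium, where their tumours arise. The labels name no treatment, and the mice formed a single group and gave 1 tumour of 750 mm3 each, which had been digested with collagenase and DNase at 37 °C. The sort had kept CD45+ CD11b+ F4/80+ cells and excluded Ly6G+ cells, which were then profiled by droplet sequencing of 3' ends (10x, v3 chemistry). The mouse was the replicate, and every comparison was between groups of cells within the mice, so that the labels gave no contrast between conditions.

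CXCL9 is a secreted chemokine that binds the receptor CXCR3 on activated T cells and natural killer cells and draws them to a tissue. Macrophages and dendritic cells make it chiefly after interferon gamma, which acts through a receptor on their surface. CXCL10, a ligand of the same receptor, is induced by type I interferons and by inflammatory signals as well. Expression of Cxcl9 in tumour macrophages has been linked to T cell infiltration.

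Cxcl9 (ENSMUSG00000029417) lies on the minus strand of chromosome 5 at 92321347 to 92328079 of build mm10, and Cxcl10 (ENSMUSG00000034855) on the same strand at 92346638 to 92348889. The RefSeq promoter windows (GRCm38.p6, 250 bases before to 50 after the start, 5′ to 3′ along the gene's own strand) of 4 genes that the results turn on are shown: Cxcl9 itself, its neighbour Cxcl10, Gbp2, which differed most firmly between the groups, and Ifit1, which defined the second group of cells. Capitals mark matches, on either strand, to 3 letter patterns: GAAA, NN and GAAA in a row, the core of the interferon-stimulated response element (ISRE) bound by IRF proteins; TTCNNNGAA, the gamma-activated site (GAS) of interferon gamma-induced genes; and TTANNNTAA, a variant searched with the Cxcl9 window in view.
Cxcl9, chr5:92328030-92328329, minus strand: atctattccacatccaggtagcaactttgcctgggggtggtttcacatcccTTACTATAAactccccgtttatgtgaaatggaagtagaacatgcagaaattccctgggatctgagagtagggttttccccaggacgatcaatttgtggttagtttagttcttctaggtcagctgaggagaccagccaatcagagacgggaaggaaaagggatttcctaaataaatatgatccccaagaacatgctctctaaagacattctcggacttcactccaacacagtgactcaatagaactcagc
Cxcl10, chr5:92348840-92349139, minus strand: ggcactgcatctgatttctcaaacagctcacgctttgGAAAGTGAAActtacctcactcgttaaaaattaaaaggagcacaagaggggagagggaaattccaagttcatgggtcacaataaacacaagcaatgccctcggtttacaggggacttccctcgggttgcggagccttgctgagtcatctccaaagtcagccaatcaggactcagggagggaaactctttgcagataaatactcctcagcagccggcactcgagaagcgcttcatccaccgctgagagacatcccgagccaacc
Gbp2, chr3:142620413-142620712, plus strand: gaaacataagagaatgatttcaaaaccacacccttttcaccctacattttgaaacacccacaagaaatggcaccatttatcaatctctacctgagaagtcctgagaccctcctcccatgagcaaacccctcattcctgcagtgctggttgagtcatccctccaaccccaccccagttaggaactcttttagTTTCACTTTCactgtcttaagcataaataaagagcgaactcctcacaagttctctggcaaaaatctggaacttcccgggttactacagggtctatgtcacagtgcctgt
Ifit1, chr19:34640639-34640938, plus strand: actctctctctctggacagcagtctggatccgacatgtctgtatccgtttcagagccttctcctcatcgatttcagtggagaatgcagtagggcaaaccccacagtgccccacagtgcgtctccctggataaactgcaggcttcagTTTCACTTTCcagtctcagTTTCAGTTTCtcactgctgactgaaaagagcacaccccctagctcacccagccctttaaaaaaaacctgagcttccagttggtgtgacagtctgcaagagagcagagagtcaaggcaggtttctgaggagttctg
The Cxcl9 window held no ISRE core and no GAS, and its match was to the variant, at bases -199 to -191 from the start. Cxcl10 had an ISRE core at -213 to -204 and Gbp2 at -59 to -50, while Ifit1 had 2, at -104 to -95 and at -85 to -76. Of all 32851 windows of this length, 3.44% held an ISRE core, 8.30% a GAS and 5.11% the variant. These are matches of letters in the reference sequence and not measured binding sites, and the FVB/N sequence was not used here.

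The share of cells with a Cxcl9 UMI was 1.21% in mouse 1 (95% exact interval 0.522 to 2.36), 4.46% in mouse 2 (3.62 to 5.43) and 1.93% in mouse 3 (1.62 to 2.29). It was highest in mouse 2, whose interval did not reach those of the other two, and averaged 2.53% ± 1.71 (SD, n = 3 mice). Members were deeply sequenced cells: their median was 21587, 23892.5 and 15480 UMIs in mice 1, 2 and 3, against 14960, 13299.5 and 9263 in cells without Cxcl9 and 19160, 24169 and 15759 in the cells with Ifit1 alone. With every cell thinned to 2000 UMIs, which left out 46, 108 and 265 shallower cells, the shares were 0.324%, 1.75% and 0.834%, in the same order. Intervals cover counting error only.

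Free RNA can place a UMI in a cell that does not express a gene. Among 83 cells with UMIs of at least 3 of 7 epithelial genes, which are taken to lack macrophage Cxcl9, 2 carried Cxcl9 (2.41%, interval 0.293 to 8.43), 1 of them with 17 UMIs. Their median depth was 11345 UMIs, against 18678 in members. The 2 with Cxcl9 were of 58 such cells in mouse 3, against 0 of 4 in mouse 1 and 0 of 21 in mouse 2. They also count among the members. The overall share of 2.43% lay inside the interval, which is too wide to place it above or below a background of free RNA. The share alone is not read as a share of expressing cells. Cells with many Cxcl9 UMIs bear on expression more directly. A single UMI was found in 99 members (3, 35 and 61 in mice 1, 2 and 3), the value just inside the rule, 2 UMIs in 29, 3 or 4 in 33, and 5 or more in 76 (2, 35 and 39). Those 76 cells, 0.780% of all kept cells, held 88.5% of the 2371 Cxcl9 UMIs. The highest cell of each mouse had 10, 189 and 113 UMIs, and the median member had 2.5, 2.5 and 2.

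**Figure D1:**
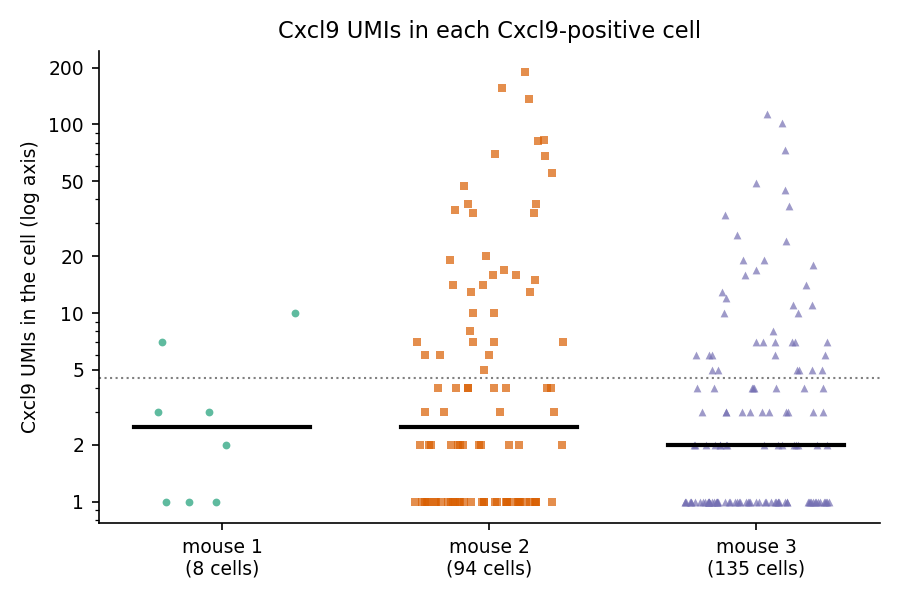
Cxcl9 UMIs of each Cxcl9-positive cell (1 point a cell) by mouse, on a log axis; bars are medians and the dotted line separates cells with 5 or more UMIs from the rest. Most points lie at 1 or 2 UMIs, while single cells of mice 2 and 3 reach 189 and 113.

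The members carried macrophage markers. C1qa, a complement subunit typical of tissue macrophages, had a UMI in 99.6% of members and 98.4% of Cxcl9-negative cells, the growth factor receptor gene Csf1r in 97.0% and 96.1%, and Adgre1, which encodes F4/80, in 86.5% and 85.4%. After thinning the shares were 97.4% and 96.8% for C1qa, 76.8% and 73.6% for Csf1r, and 44.3% and 42.7% for Adgre1. The summed level of the 16 macrophage lineage genes was lower in members of each mouse, at 44164, 65876 and 77089 CPM against 67952, 71987 and 81856 CPM in Cxcl9-negative cells, and 4 of the 16 had a positive log2 fold change. None of them was called in either direction, while without mouse 1 Apoe and Ctsd were called lower. Some defining genes of other lineages were near 0 in members: Cd3e had 0 UMIs, Flt3 had 1 and Xcr1, a marker of cross-presenting dendritic cells, had 5 in 4 cells. Others were not: Ccr7, of the dendritic cell list, had 58 UMIs in 18 members. Cxcr3, of the T and natural killer cell list, had 23 UMIs in 21 members. Neither was called against Cxcl9-negative cells (log2 fold change -0.26 ± 0.22 for Ccr7 and 0.03 ± 0.39 for Cxcr3). The summed level of 14 dendritic cell genes was 127, 103 and 81.5 CPM (UMIs of the genes in 1000000 UMIs of the group) in members of mice 1, 2 and 3, against 93.9, 95.9 and 72.8 CPM in Cxcl9-negative cells. That of 16 T and natural killer cell genes was 18.1, 18.5 and 17.3 CPM against 17.3, 24.0 and 15.9 CPM. A UMI of at least 1 of 12 genes of other lineages was found in 52 members (21.9%) and in 11.8% of Cxcl9-negative cells, which were shallower. Doublet removal at a rate set by cell number took 8.86% of members and 4.30% of Cxcl9-negative cells.

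The filters removed 411 of 1074 barcodes of mouse 1, 362 of 2470 of mouse 2 and 451 of 7429 of mouse 3. Mouse 1 stood apart in its high loss and in its 8 members. Libraries shared 7 kept barcodes, none of them a member. Calls are from edgeR's quasi-likelihood test on UMIs summed per mouse and group with the mouse as a block, 2-sided, at a Benjamini-Hochberg adjusted p under 0.05 over all genes tested. Levels are CPM of these sums, which cannot tell fewer cells with a transcript from fewer transcripts per cell. Because members were deeper, each comparison was repeated with equal numbers of cells drawn from both groups in each bin of total UMIs, here called matched depth.

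Compared with all Cxcl9-negative cells, Cxcl9-positive cells had higher levels of interferon-response genes, led by the guanylate-binding protein genes Gbp2 and Gbp4 and the transcription factor gene Irf7, while macrophage lineage and MHC class II genes were not called. Of 10636 genes tested, 79 were called higher (0.743%) and 22 lower (0.207%). Of the higher calls 36, and of the lower calls 2, were also called with matched depth, where 0.453% of genes were called higher and 0.0647% lower. At an unadjusted p under 0.05, 339 genes were higher and 256 lower. The count rested on the mice: without mouse 1 312 genes were called, without mouse 2 18, without mouse 3 26, and without the mouse block 0. Gbp2, Irf7 and AW112010 were called with any 1 mouse left out, whereas Gbp4, Il18bp and Fcgr4, among others, were not called without mouse 2 or without mouse 3. The median log2 fold change of all genes was -0.00. Cxcl9 chose the cells, and its 127, 418 and 339 CPM in members are a description.

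Of 26 tested genes of the interferon gamma list, 13 were called higher and 0 lower, with a median log2 fold change of 0.65. With matched depth 7 of 24 were called higher. Gbp2, a GTPase that coats intracellular pathogens and their vacuoles, was at 27.2, 93.0 and 52.6 CPM in members of mice 1, 2 and 3, against 11.6, 24.2 and 13.6 CPM in Cxcl9-negative cells. It was higher in each mouse, with a log2 fold change of 1.91 ± 0.11 (SE; adjusted p = 8.3e-21), and the groups did not overlap. Here and below, a lack of overlap is a description, since its share over all tested genes is not given. A Gbp2 UMI was found in 43.0% of members and 13.8% of Cxcl9-negative cells, and in 11.8% and 2.86% of them after thinning.

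Other genes of this list that were also called with matched depth encode GTPases and immune regulators. Gbp4 rose by 2.54 ± 0.37 on the log2 scale from low levels, at 4.53, 11.3 and 3.96 CPM in members against 1.56, 1.41 and 1.00 CPM. Ifi47, an immunity-related GTPase, was at 45.3, 23.3 and 24.5 CPM in members against 13.4, 10.2 and 10.0 CPM (log2 fold change 1.27 ± 0.17). Il18bp encodes a secreted inhibitor of interleukin 18, itself an inducer of interferon gamma, and was at 49.8, 29.2 and 22.3 CPM against 14.9, 14.8 and 12.8 CPM (0.96 ± 0.16). In Gbp4, Ifi47 and Il18bp every member value lay above every Cxcl9-negative value. Gbp9 was 0.76 ± 0.18 higher, and Fcgr4, an activating receptor for IgG, 0.58 ± 0.10.

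The ligand of this pathway was not detected in the sorted cells. Ifng itself had 0 UMIs in members and in Cxcl9-negative cells, and its receptor genes were not called: Ifngr1 was at 181, 206 and 191 CPM in members against 263, 216 and 205 CPM (log2 fold change -0.18 ± 0.10, adjusted p = 0.93), and Ifngr2 differed by -0.08 ± 0.09. Of 17 interferon receptor and signalling genes only Stat2, a factor of the type I response, was called, at 0.82 higher on the log2 scale (adjusted p = 0.0033), and with matched depth its log2 fold change was 1.07 with an adjusted p of 0.068.

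Irf1 and Ciita, an interferon-induced transcription factor and the class II transactivator, were not called, at 0.42 ± 0.12 (adjusted p = 0.074) and 0.34 ± 0.13 (adjusted p = 0.48). Ido1, which degrades tryptophan, had 0 UMIs in members, and Nos2, which makes nitric oxide, had 1. Cd274, which encodes the checkpoint ligand PD-L1, was at 13.6, 27.1 and 18.4 CPM in members against 15.1, 17.2 and 9.57 CPM, higher in mice 2 and 3 only (0.72 ± 0.17, adjusted p = 0.0085). With matched depth its log2 fold change was 0.67 and its adjusted p 0.47.

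The type I interferon list, chiefly antiviral effectors, moved in the same direction, with 25 of 37 tested genes called higher, 0 lower and a median log2 fold change of 0.87. With matched depth 16 of 33 were called higher. Irf7, which amplifies the type I response, was at 190, 99.3 and 125 CPM in members against 49.5, 37.9 and 43.2 CPM, without overlap (1.50 ± 0.09, adjusted p = 2.5e-20). Ifit2, an RNA-binding antiviral protein gene, was at 13.6, 39.3 and 29.2 CPM in members against 8.87, 10.4 and 8.35 CPM (1.81 ± 0.16). Ifi44, Isg20 and Mx1 were higher by 1.60 ± 0.32, 1.46 ± 0.21 and 1.42 ± 0.22, and Oasl2 by 1.29 ± 0.12.

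Other members of this list depended on the mouse. Isg15, a ubiquitin-like modifier, was at 68.0, 193 and 261 CPM in members against 99.0, 112 and 99.1 CPM. It was higher in mice 2 and 3, lower in mouse 1 and not called (0.94 ± 0.36, adjusted p = 0.95), but with matched depth it was called, at 1.12 with an adjusted p of 0.0024. Rsad2, which encodes viperin, showed the same split at 0, 106 and 98.8 CPM against 16.0, 37.8 and 37.2 CPM (1.39 ± 0.21, adjusted p = 0.11), and was called without mouse 1 at 1.45. Unlike Isg15, Rsad2 was not called with matched depth, at 2.56 with an adjusted p of 0.9996. Ifit1 was called at 0.76 ± 0.20, from 0, 18.5 and 18.0 CPM against 5.03, 12.1 and 8.86 CPM.

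Cxcl10 was at 752, 262 and 186 CPM in members of mice 1, 2 and 3, against 182, 104 and 121 CPM in Cxcl9-negative cells. The groups did not overlap, but Cxcl10 was not called (log2 fold change 1.24 ± 0.36, adjusted p = 0.91). A Cxcl10 UMI was present in 44.3% of members and in 21.3% of Cxcl9-negative cells, and in 18.9% and 9.01% after thinning. It was called without mouse 2 and without mouse 3, at 1.25 and 1.63, but not without mouse 1, at 1.00. Cxcl11, the remaining CXCR3 ligand, was not analysed here.

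**Figure D2:**
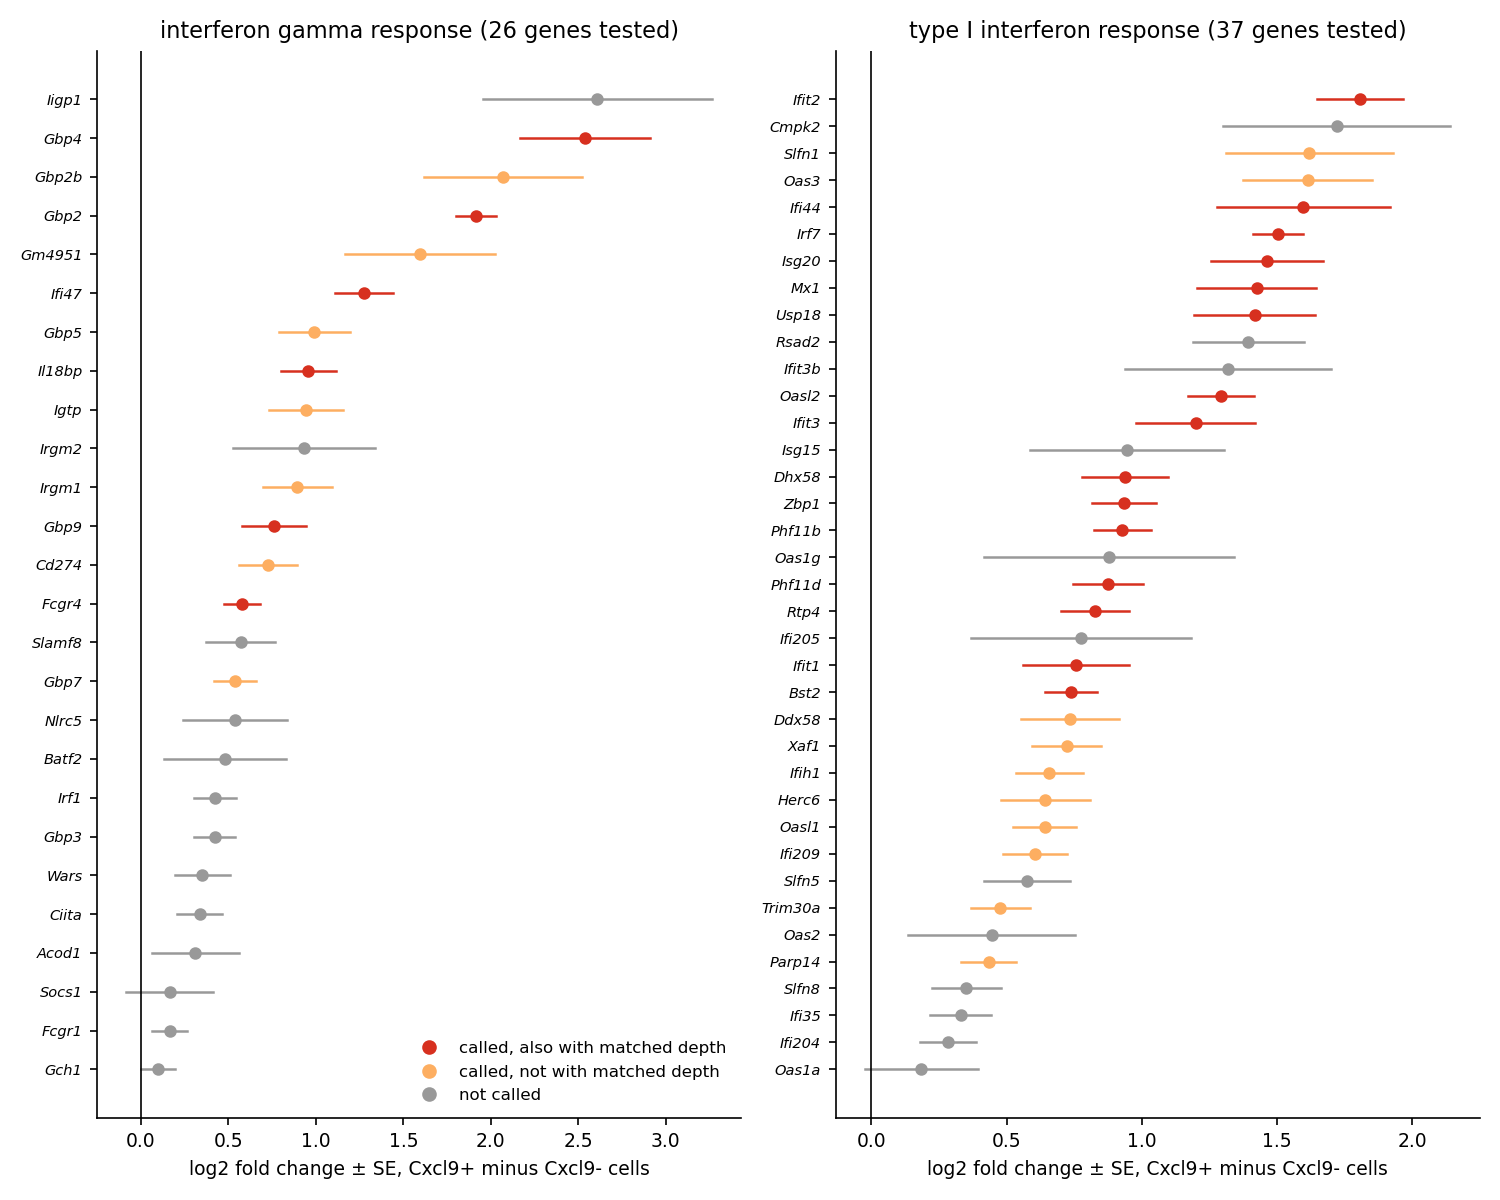
Log2 fold change ± SE (edgeR) of Cxcl9-positive minus Cxcl9-negative cells for the tested genes of the interferon gamma list (26, left panel) and the type I interferon list (37, right panel), coloured by call. All points lie right of 0; 13 and 25 genes are called.

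Of 21 genes of MHC class I presentation and the immunoproteasome, 3 were called higher and 0 lower, with a median log2 fold change of 0.31 and 19 of 21 positive. With matched depth 2 were called, H2-K1 and H2-T23, and without mouse 1 12. H2-T23 encodes the nonclassical molecule Qa-1, a ligand of inhibitory receptors of natural killer cells, and was at 168, 163 and 151 CPM in members against 113, 115 and 93.5 CPM (0.58 ± 0.09). Psme2 and Psmb9, components of the interferon-induced proteasome, were 0.38 ± 0.10 and 0.34 ± 0.09 higher, and 0.34 and 0.37 higher with matched depth, where they were not called. None of 12 MHC class II genes was called, with a median of 0.03. With matched depth the median was 0.34 and Cd74, the invariant chain, was called higher at 0.44 (adjusted p = 0.0095), against -0.03 in the full comparison. H2-DMb2 and H2-Eb1 were called higher with at least 2 Cxcl9 UMIs, without doublets and without the deepest members, and without mouse 1 4 class II genes were called higher and 1 lower. Of all 12063 genes tested without mouse 1, 217 were called higher and 95 lower. None was called of 19 costimulation and checkpoint genes outside the interferon list. Il12b, a subunit of interleukin 12, was at 208, 171 and 18.0 CPM in members against 44.2, 99.4 and 23.2 CPM, and was not called (0.69 ± 0.47).

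Outside the lists, 5 genes met the rule for naming, and all were higher. AW112010, an interferon-inducible transcript, was at 204, 105 and 129 CPM in members against 95.5, 54.8 and 52.9 CPM (1.10 ± 0.09, adjusted p = 1.1e-14). Lgals3bp, a secreted galectin-binding glycoprotein, rose by 0.61 ± 0.10. Sp100, of nuclear bodies, rose by 0.48 ± 0.10, Pnp, of purine salvage, by 0.41 ± 0.09 and Epsti1, an interferon-inducible gene, by 0.37 ± 0.09. A further 3 called genes are given, although chosen after their values were seen: the complement genes C3 and Cfb, higher by 1.14 ± 0.16 and 1.22 ± 0.19, and the protease inhibitor gene Serpina3g, higher by 1.54 ± 0.18. C3 was lower in mouse 1, at 13.6 against 19.6 CPM, and Cfb and Serpina3g were higher in each mouse.

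Among other macrophage states, Ms4a4c, a membrane protein gene of the monocyte list, was the only 1 of 8 tested genes of that list called, at 113, 78.7 and 97.7 CPM in members against 72.0, 34.9 and 44.3 CPM (1.10 ± 0.10). Ccr2 of the same list was at 36.2, 189 and 123 CPM against 230, 158 and 113 CPM (-0.06 ± 0.48). Ly6c2, with UMIs in 6 members, was at 0, 8.64 and 2.52 CPM against 6.04, 3.33 and 2.55 CPM (0.76 ± 0.37, adjusted p = 0.89). The matrix-degrading macrophage elastase gene Mmp12 fell by 0.51 ± 0.10, at 435, 144 and 116 CPM in members against 544, 223 and 157 CPM. The lectin gene Cd209f, of the resident list, differed by -0.65 ± 0.13, at 0, 27.7 and 20.2 CPM in members against 6.50, 41.3 and 33.7 CPM. Tnf, an inflammatory cytokine, differed by -0.46 ± 0.10, at 99.7, 196 and 77.5 CPM against 165, 242 and 114 CPM, with an adjusted p of 0.0028, and by -0.48 with matched depth, with an adjusted p of 0.053.

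Widely used polarization genes were not called: Spp1 (log2 fold change 0.04 ± 0.32), Arg1 (-0.27 ± 0.87), Mrc1 (-0.27 ± 0.25), Trem2 (-0.28 ± 0.11) and Lyve1 (-0.10 ± 0.17). Of 21 resident and alternative activation genes, 2 had a positive log2 fold change, with a median of -0.14 and 1 called lower. Against the cells with Ifit1 alone, 0 of the 21 were positive, with a median of -0.40 and 1 called lower. Of all genes tested, 49.3% and 48.9% were positive in these comparisons. Of 14 cycling genes only Ube2c, a mitotic ubiquitin-conjugating enzyme, was called, at 0.49 ± 0.11, and Mki67 was not, at 0.31 ± 0.25. No gene of the dissociation and heat stress list was called among 18, nor of the other chemokines among 19.

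Genes of tumour epithelium were lower in members. Of 7 tested, 5 were called lower, with a median log2 fold change of -1.54. With matched depth 0 of 5 were called, at a median of -2.71, and with cells of other lineages left out of both groups 0 of 5 were called, at a median of -0.21. They were Wfdc18 (-1.71 ± 0.14), the milk protein gene Csn2 (-2.65 ± 0.46), the keratin genes Krt8 and Krt18 (-1.38 ± 0.34 and -1.24 ± 0.27) and the adhesion gene Epcam (-1.54 ± 0.33). The summed level of the 12 listed genes was 27.2, 45.3 and 121 CPM in members, against 119, 311 and 237 CPM in Cxcl9-negative cells. The part of these transcripts in the other differences was not tested.

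An Ifit1 UMI was found in 18.6% of members, 19 of 94 in mouse 2, 25 of 135 in mouse 3 and 0 of 8 in mouse 1, which allows a share of up to 37.5% there, against 4.52% of Cxcl9-negative cells. After thinning the shares were 5.26% and 1.22%. Of the 237 members, 25 had UMIs of both Ifit1 and Gbp2, 77 of Gbp2 alone, 19 of Ifit1 alone and 116 of neither. With cells that had an Ifit1 UMI left out of both groups, 22 of 10438 genes were called higher (0.211%) and 7 lower (0.0671%). They included Gbp2, Gbp4, Il18bp, Fcgr4 and Cd274 of the interferon gamma list, 7 of 34 genes of the type I list, Irf7 among them, and H2-T23, AW112010 and Ms4a4c.

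The levels within members differed by gene when they were split by Ifit1. Rsad2 was at 317 CPM in members with Ifit1 and 25.2 CPM in members without it in mouse 2, and at 466 and 10.3 CPM in mouse 3. Cxcl9-negative cells were at 146 and 20.6 CPM in mouse 2, and at 451 and 8.37 CPM in mouse 3, with and without Ifit1. Ifit2 followed the same order, at 120 and 8.25 CPM in members of mouse 2 and 130 and 4.92 CPM in members of mouse 3. Rsad2 and Ifit2 were thus high in the cells with Ifit1 whether or not they had Cxcl9.

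Gbp2 was high in members with and without Ifit1. It was at 85.9 CPM in members with Ifit1 and 95.8 CPM in members without it in mouse 2, and at 55.7 and 51.9 CPM in mouse 3. In Cxcl9-negative cells it was at 35.9 and 22.4 CPM in mouse 2, and at 34.2 and 12.2 CPM in mouse 3, with and without Ifit1. Cxcl9 itself was at 291 and 467 CPM in the 2 kinds of member in mouse 2, and at 345 and 337 CPM in mouse 3. Irf7 was intermediate, at 142 and 83.0 CPM in members of mouse 2 and 328 and 76.5 CPM in members of mouse 3, against 92.5 and 29.2 CPM, and 200 and 32.2 CPM, in Cxcl9-negative cells. These splits were not tested.

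**Figure D3:**
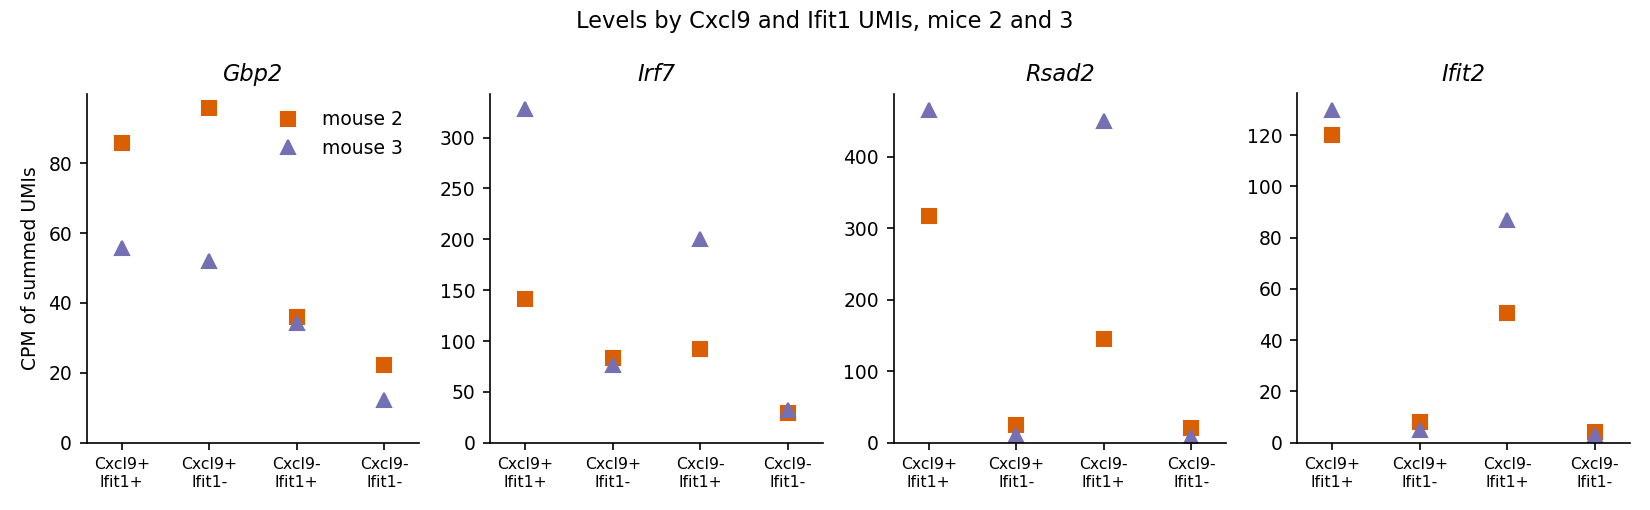
CPM of summed UMIs of Gbp2, Irf7, Rsad2 and Ifit2 in mice 2 and 3 (1 point a mouse), with cells grouped by a UMI of Cxcl9 and of Ifit1. Gbp2 is at 51.9 CPM or more in Cxcl9-positive cells with or without Ifit1, while Rsad2 exceeds 100 CPM only in the groups with Ifit1.

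Against the 430 Cxcl9-negative cells with an Ifit1 UMI, a group whose depth was close to that of the members, no gene was called higher in Cxcl9-positive cells and 6 of 9463 were called lower (0.0634%). By DESeq2 no gene was called, and at an unadjusted p under 0.05 126 genes were higher and 235 lower in the edgeR test. Without mouse 1 20 genes were called in either direction, without mouse 2 4, and without mouse 3 or the mouse block 0. With matched depth 1 gene was called higher (0.0109%), Gbp2, and 6 lower (0.0657%). These results share the member sums with the comparison above, so both are set side by side only. Ifit1 chose the second group and was not tested.

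The lower genes were Isg15, Tnf, Cd209f, the protease inhibitor gene Slpi and the epithelial genes Krt18 and Epcam. Isg15 was at 68.0, 193 and 261 CPM in members against 179, 283 and 589 CPM in the cells with Ifit1 alone, lower in each mouse (log2 fold change -0.94 ± 0.15, adjusted p = 0.047). With matched depth its log2 fold change was -0.91 and its adjusted p 0.25. Tnf was at 99.7, 196 and 77.5 CPM against 135, 302 and 168 CPM (-0.81 ± 0.13, adjusted p = 0.047, and 0.037 with matched depth). Slpi, at 0, 5.37 and 4.33 CPM against 18.9, 27.0 and 17.6 CPM, had the largest change (-2.26 ± 0.27), but its UMIs came from 10 members and 24 cells with Ifit1 alone. Cd209f differed by -1.45 ± 0.18. Krt18 and Epcam differed by -1.83 ± 0.28 and -1.88 ± 0.31. With matched depth Cd209f, Krt18 and Epcam differed by -1.23, -0.56 and -0.66, each at an adjusted p of 0.999. The epithelial list summed to 27.2, 45.3 and 121 CPM in members against 41.1, 74.5 and 985 CPM, lower in members of each mouse and by most in mouse 3.

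Gbp2 stood at 27.2, 93.0 and 52.6 CPM in members, against 5.55, 35.9 and 34.2 CPM in cells with Ifit1 alone, higher in each mouse. Its log2 fold change of 1.06 ± 0.17 had an adjusted p of 0.056, and with matched depth it was 1.36 with an adjusted p of 0.018. Il18bp was at 49.8, 29.2 and 22.3 CPM against 15.5, 14.2 and 14.99 CPM, without overlap (0.89 ± 0.20, adjusted p = 0.22). Fcgr4 at 0.46 ± 0.13, the class II gene H2-Eb1 at 0.46 ± 0.12 and Ciita at 0.36 ± 0.17 were higher in each mouse, with adjusted p from 0.57 to 1.

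The type I list ran the other way in this comparison, with a median log2 fold change of -0.69 over 37 genes, 1 of them called, against -0.00 for all genes. Rsad2 was at 0, 106 and 98.8 CPM in members against 43.3, 146 and 451 CPM (-1.39 ± 0.61, adjusted p = 1). A second group chosen by a gene of that list is high in it by the choice. The interferon gamma list had a median of -0.07 over 25 genes and no calls. Irf7 (-0.16 ± 0.21) and Cxcl10 (0.21 ± 1.31) differed by less than their error. Cxcl10 was at 752, 262 and 186 CPM in members against 123, 171 and 748 CPM, higher in mice 1 and 2 and lower in mouse 3.

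**Figure D4:**
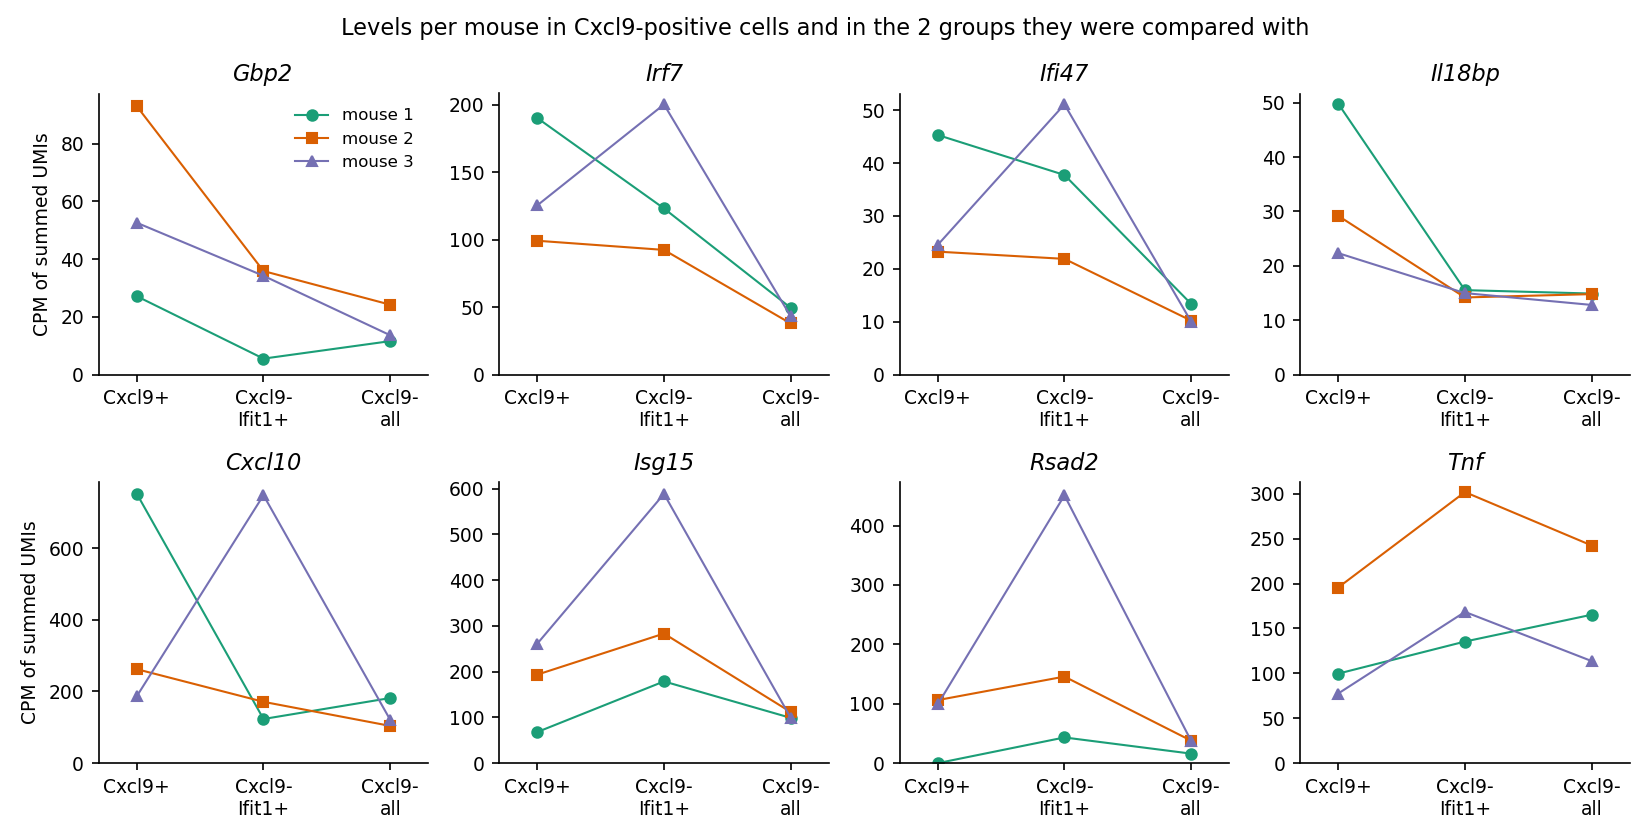
CPM of summed UMIs per mouse (1 line a mouse) in Cxcl9-positive cells, Cxcl9-negative cells with an Ifit1 UMI and all Cxcl9-negative cells. Gbp2 and Il18bp are highest in Cxcl9-positive cells in all 3 mice, whereas Isg15, Rsad2 and Tnf are higher in the cells with Ifit1 alone than in Cxcl9-positive cells.

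Members differed among themselves by their Cxcl9 level. Cells with 5 or more Cxcl9 UMIs were compared with cells with 1, in mice 2 and 3 only (35 and 39 cells against 35 and 61), since mouse 1 had 2 and 3 such cells. Depth differed in opposite directions. The high cells had a median of 21674 UMIs against 34553 in mouse 2, and 15237 against 12187 in mouse 3. Of 7379 genes tested, 50 were called (0.678%), of which 38 were higher (0.515%) and 12 lower (0.163%), and 17 of the higher and 5 of the lower calls were also called with matched depth, where 0.333% of genes were called higher and 0.0833% lower. By DESeq2's Wald test 6 genes were called, and without the mouse block 0. The high cells had higher levels of Gbp2, of other interferon-induced genes, of the immunoproteasome and of the chemokines Ccl3 and Ccl4.

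Gbp2 was at 192 and 113 CPM in the high cells of mice 2 and 3, against 33.3 and 22.8 CPM in the cells with 1 Cxcl9 UMI (log2 fold change 2.48 ± 0.20, adjusted p = 1.9e-12). A Gbp2 UMI was found in 60.5% of the high cells of all 3 mice and 26.3% of the cells with 1, and after thinning in 21.3% and 3.19%. AW112010 was at 173 and 222 CPM against 72.4 and 64.6 CPM (1.54 ± 0.17). Ms4a4c rose by 1.46 ± 0.19, Ifitm6, a membrane protein gene of the interferon-induced transmembrane family, by 1.13 ± 0.26, and Gbp7 by 1.25 ± 0.22.

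Of the interferon gamma list 7 of 20 genes, and of the type I list 7 of 31, were called higher, with medians of 0.91 and 0.95. Irf7 was at 127 and 171 CPM against 63.0 and 77.3 CPM (1.12 ± 0.17). Isg15 was at 233 and 422 CPM against 132 and 183 CPM (1.06 ± 0.14), and Bst2, the membrane tether of budding viruses, at 285 and 332 CPM against 172 and 182 CPM (0.84 ± 0.14). Each of the 3 was higher in both mice. Ifit1 was not called, at 1.30 ± 0.37 (adjusted p = 0.11).

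Genes of antigen processing moved with them. Of 21 genes of MHC class I presentation, 5 were called higher, among them the proteasome genes Psmb8, at 445 and 400 CPM against 240 and 302 CPM (0.70 ± 0.13), and Psme2 (0.62 ± 0.14), and the class I heavy chain H2-K1 (0.41 ± 0.10). The T cell costimulator Cd40 was 0.81 ± 0.21 higher, and 1.04 higher with matched depth, where it was not called (adjusted p = 0.10). The chemokine genes Ccl3, at 1295 and 581 CPM against 832 and 391 CPM, and Ccl4, at 2498 and 1485 CPM against 1648 and 1010 CPM, were 0.65 ± 0.11 and 0.62 ± 0.10 higher. The neutrophil chemokine gene Cxcl1 was lower, at 581 and 327 CPM against 928 and 551 CPM (-0.67), and was not called with matched depth (-0.55, adjusted p = 0.071).

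Cxcl10 was at 350 and 357 CPM in the high cells against 116 and 122 CPM in the cells with 1 Cxcl9 UMI (1.61 ± 0.14, adjusted p = 1.9e-11), and with matched depth its log2 fold change was 1.48 with an adjusted p of 0.83. Il12b was at 428 and 34.0 CPM against 49.9 and 12.7 CPM (2.84 ± 0.24), from 7 and 3 high cells of mice 2 and 3 and 8 and 4 cells with 1 Cxcl9 UMI. With matched depth its log2 fold change was 4.37 with an adjusted p of 0.83. Iigp1, an immunity-related GTPase gene, was 3.78 ± 0.37 higher on the log2 scale, from 9 high cells and 6 cells with 1 UMI of Cxcl9.

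The few cells of mouse 1, outside the test, often ran the other way. Of the 38 genes called higher, 9 were higher and 26 lower in its 2 cells with 5 or more Cxcl9 UMIs than in its 3 cells with 1. Of the 12 genes called lower, 7 were higher, 3 lower and 2 equal in those 2 cells. Il1r2, called lower, was at 858 CPM in them against 15.3 CPM. Irf7 was at 33.9 CPM in the 2 high cells against 519 CPM, and Cxcl10 at 135 against 2198 CPM, while Gbp2 was at 45.2 against 15.3 CPM.

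Outside the lists Ch25h, which makes the antiviral sterol 25-hydroxycholesterol, was at 58.3 and 68.0 CPM against 21.7 and 32.8 CPM (1.27 ± 0.24), and Ifi27l2a, an interferon-induced gene, was 0.51 ± 0.11 higher. The linker histone gene Hist1h1b was lower, at 19.8 and 28.9 CPM against 56.4 and 98.3 CPM (-1.60 ± 0.25). Il1r2, the decoy receptor of interleukin 1, was at 14.1 and 13.8 CPM against 55.7 and 23.7 CPM (-1.51 ± 0.31), and Spata7 differed by -1.26 on the log2 scale. Mrc1 (-0.43 ± 0.13, adjusted p = 0.16), Spp1 (-0.38 ± 0.11, adjusted p = 0.16) and Lyve1 (-0.99 ± 0.41, adjusted p = 0.56) were not called.

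**Figure D5:**
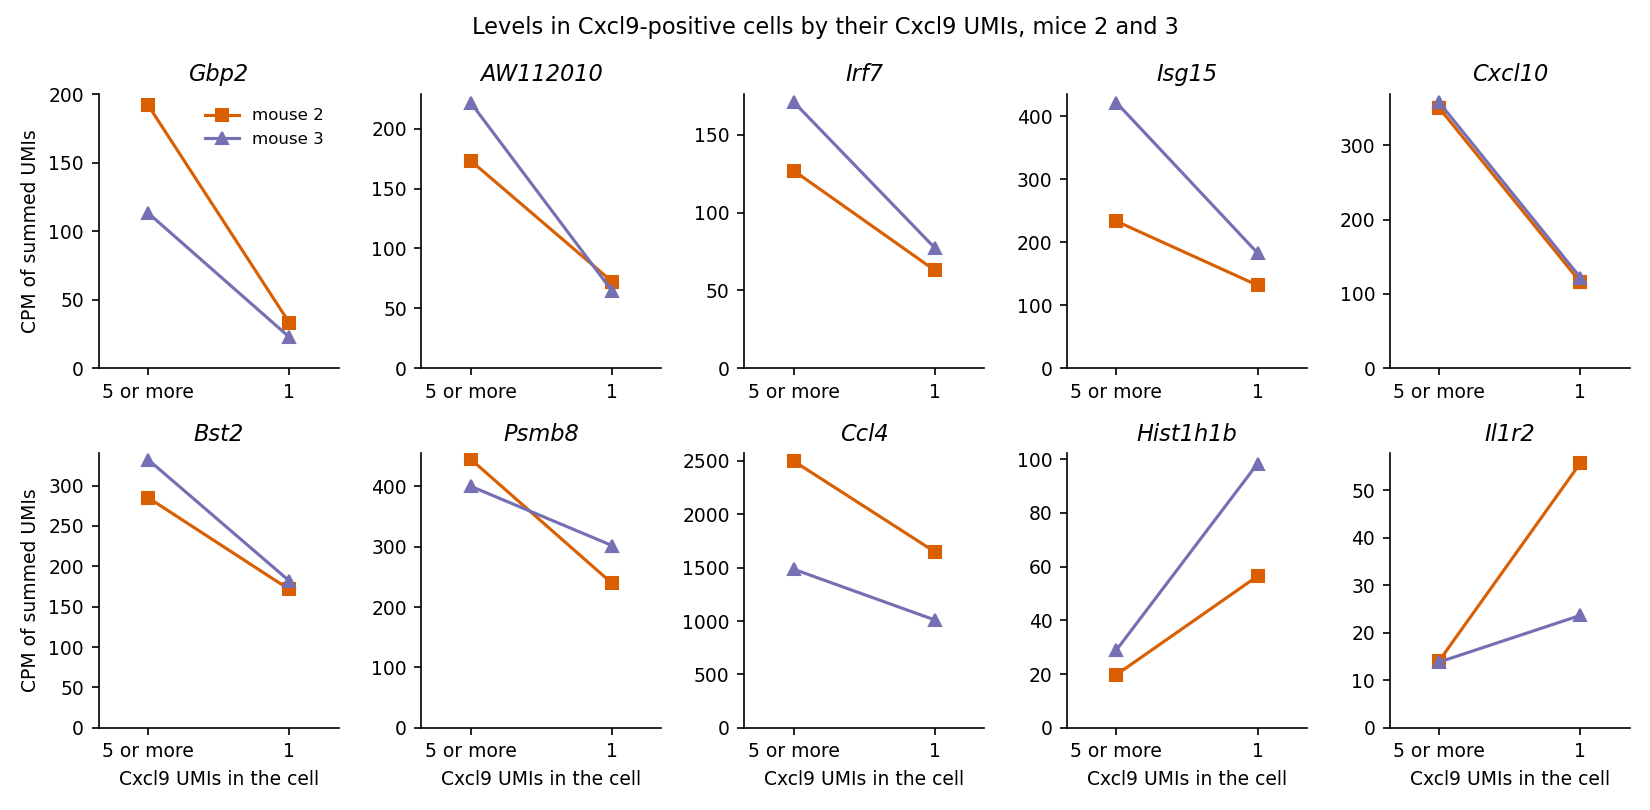
CPM of summed UMIs per mouse (1 line a mouse, mice 2 and 3) in Cxcl9-positive cells with 5 or more Cxcl9 UMIs and in those with 1. Gbp2, AW112010, Irf7, Isg15, Cxcl10, Bst2, Psmb8 and Ccl4 are higher, and Hist1h1b and Il1r2 lower, in the cells with 5 or more, in both mice.

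The promoter windows of the genes called higher against all Cxcl9-negative cells were read for the same letter patterns as a description. Of 13 called genes of the interferon gamma list, 10 had a RefSeq window, and an ISRE core was present in 7 of them and a GAS in 3. Of 25 called genes of the type I list, 19 had a window, with an ISRE core in 8 and a GAS in 3. Among 27025 genes with a window, 3.99% had an ISRE core and 9.55% a GAS in at least 1 window. The Cxcl9 window shown above shared neither pattern with these genes.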

How the data were processed

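Macrophages sorted from the tumours of 3 mice had been sequenced as 1 library each. Per the submitters' processing notes, the authors used Cell Ranger 3.0.2 and build mm10, and the deposited matrices hold raw UMI counts per gene and barcode. The gene annotation version is not given in the sources used here; positions came from GENCODE of the same build. The members, gene lists and tests were chosen with earlier results of these data known.

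From these, UMIs were summed per mouse and group of cells. The tests used edgeR 4.0.16 (R 4.3.3) with TMM normalization, filterByExpr and the robust quasi-likelihood F test, and with the mouse as a block because both sums of a mouse come from the same library. SE is the log2 fold change divided by the square root of F. Cxcl9 was left out of every test and Ifit1 where it chose the cells. With 3 mice, or 2, p-values set the difference between groups within a mouse against its variation over these animals. That variation was estimated in part from all genes together, so a small p-value does not rest on the spread of 1 gene alone. Differences in level between mice were taken out by the block. Simulated counts with known changes were used to check the test. Scrublet (scanpy 1.11.5) marked only 11 cells, and the alternative for doublets took the highest scores at 0.8% of cells per 1000. The other alternatives were matched depth in bins of 0.1 log10 UMIs, thinning to 2000 UMIs, the cell filters, cells of other lineages, a minimum of 2 Cxcl9 UMIs, cells without Ifit1, DESeq2 1.42.0 size factors and Wald test, no filter on low counts, no block, and each mouse left out.

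Of 366 listed genes in 21 lists, 362 were in the files. Besides 28 genes given whatever their result, genes of a list were named when they passed the threshold in the test and with matched depth and had the same sign in each mouse, up to 6 of largest change per list against all Cxcl9-negative cells, 4 against cells with Ifit1 and 3 among members. Outside the lists 50 CPM was also required, and some genes are not reported here. Others were named after their values were seen: genes of short lists of calls, Slpi, Iigp1, Cd40, Cxcl1, Cd74, H2-DMb2, H2-Eb1, C3, Cfb, Serpina3g and the genes of the splits by Ifit1.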

Additional observations from a re-analysis of the deposited data

Results flagged for a closer look

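Barcodes that failed the filters carried Cxcl9 as well: 9 of 1224 (0.735%, exact 95% interval 0.337 to 1.39) had a Cxcl9 UMI. They are given because Cxcl9 appeared in barcodes outside every comparison. They were 1, 5 and 3 barcodes in mice 1, 2 and 3 (0.243%, 1.38% and 0.665%), with 22 Cxcl9 UMIs in all and a median depth of 1689 UMIs over all removed barcodes. The free-RNA background at this depth was not measured, and the share is not read as expression.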

How the results depend on the processing

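Against all Cxcl9-negative cells, 101 genes were called, and 87 to 145 under the filters on genes per cell, mitochondrial UMIs and low counts, doublet removal, the loss of other lineages, a minimum of 2 Cxcl9 UMIs, DESeq2 size factors, or, an alternative chosen after seeing the data, the loss of each mouse's deepest member. The count was 48 with matched depth, 18 after thinning, 29 in cells without Ifit1, 28 by DESeq2's Wald test and 18 to 312 with a mouse left out, 312 of them without mouse 1, 18 without mouse 2 and 26 without mouse 3. Against cells with Ifit1 alone, 6 genes were called, 2 with at least 1000 genes, at 25% mitochondrial UMIs, without doublets or with DESeq2 size factors, 12 at 8% mitochondrial UMIs, 0 by DESeq2's Wald test, 109 without a filter on low counts, 18 without the deepest members and 0 to 20 with a mouse left out. Among members, 50 genes were called, 25 with matched depth, 19 at 8% mitochondrial UMIs, 81 without doublets, 6 by DESeq2's Wald test and 82 without the filter on low counts. Both sums of a mouse share its library, and without the replicate block each comparison called 0 genes, with 150, 89 and 134 at an unadjusted p under 0.05.

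Among the genes named against all Cxcl9-negative cells, Gbp2, Irf7 and AW112010 kept their call in every alternative run except the one without the block, Gbp2 at 1.75 to 3.44, while Gbp4, Il18bp and Fcgr4 among others lost it without mouse 2 and without mouse 3. Isg15 and Rsad2, not called in that comparison, were called in 5 and 8 alternatives.

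The sign changed for genes that were not called in the full comparison. Against all Cxcl9-negative cells Spp1 was at -0.050 with matched depth, -0.28 without doublets, -0.25 without other lineages, -0.70 after thinning, -0.11 without the block and -0.31 to 0.20 with a mouse left out. Arg1 was at 0.25 with 2 Cxcl9 UMIs and -1.42 to 0.089 with a mouse left out, Lyve1 at 0.14 without the block, and Ciita at -0.64 and Mki67 at -1.41 after thinning. Cd74, at -0.03, was at 0.44 and called with matched depth, and uncalled at 0.070 and 0.020 with 8% and 25% mitochondrial UMIs, 0.0043 without doublets, 0.0049 without Ifit1, 0.087 without the deepest members and -0.12 to 0.10 with a mouse left out. H2-Eb1 was at -0.051 after thinning. Ifngr1 and Ifngr2 were at 0.0099 and 0.055 with matched depth. Against cells with Ifit1 alone Cxcl10 was at -0.73 with matched depth, -0.20 with 2 Cxcl9 UMIs, -0.50 after thinning and -0.72 to 1.51 with a mouse left out, and Irf7 at -0.32 to 0.30 with a mouse left out. The cause of these changes was not tested. The mean share of cells with Cxcl9, 2.53% ± 1.71 (SD), ran from 0.969% after thinning to 3.20% without mouse 1, within that SD. The thinned mean lay below the unthinned share of every mouse, the lowest of which was 1.21%.

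The comparison among members had 2 mice, and with 1 left out no residual degree of freedom remained. Thinning was not run there. The 8 members of mouse 1 held 220724 UMIs in all, fewer than the members of the other mice, which limits what that mouse can show for low genes.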

Other observations

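Further counts describe which transcripts members carried together. An Il12b UMI was found in 33 members, 20 of which had a Gbp2 UMI and 5 an Iigp1 UMI. Il12b was at 25.8 CPM in members with an Ifit1 UMI and 227 CPM in members without it in mouse 2, and at 20.4 and 17.4 CPM in mouse 3. Ccl5, a chemokine for T cells, had a UMI in 35.9% of members and 10.1% of Cxcl9-negative cells, and in 13.2% and 4.02% after thinning. Itgax, which encodes CD11c, had a UMI in 80.2% and 60.0%, and in 26.8% and 21.1% after thinning. These shares were not tested.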
